A study of Mus musculus with 2 samples.

Results

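Smooth muscle contractile genes were followed in 2 sections of imiquimod (IMQ)-treated mouse skin. Acta2, Actg2, Cnn1, Myh11, Tagln and Lmod1 were taken by symbol, and all 6 were among the 19465 genes measured. Each section came from the dorsal skin of 1 mouse of 8 weeks, depilated 1 day before 62.5 mg of cream with 5% IMQ, a Toll-like receptor agonist that induces psoriasis-like inflammation, was applied daily for 7 days. One mouse was S1pr2fl/fl, with floxed alleles of the sphingosine-1-phosphate receptor gene S1pr2. The other was S1pr2fl/fl K14-Cre, in which the keratin 14 promoter drives Cre, so that the deletion is directed at keratinocytes and not at smooth muscle. Both carried the floxed alleles and both received IMQ. RNA was read by probes on fixed sections of 10 μm, on capture areas with sides of 11 mm, and a spot of the array can hold several cells of different types. With 1 library per genotype no test between genotypes was possible, and all intervals are 95% intervals for counting error only.

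The contractile apparatus of smooth muscle slides actin filaments over a myosin that is switched on when its light chain is phosphorylated. In skin, this apparatus is found in the walls of arterioles and veins, in the arrector pili muscles that run from the hair follicle bulge to the upper dermis, and, in part, in pericytes and activated fibroblasts. Many of its genes are driven through CArG boxes, the binding sequence of serum response factor, which acts with myocardin.

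The promoter windows of Acta2, Lmod1 and Cnn1 are shown so that a reader can see where this sequence is and is not found. A CArG box was taken as 2 C, 6 A or T and 2 G, with up to 1 letter off, a motif that reads alike on both strands. It is in capitals. The sequences are from RefSeq (GRCm38.p6) and are parts of windows of 300 bases around a gene start: Acta2 at chr19:34255378-34255477 on the minus strand, Lmod1 at chr1:135324604-135324678 on the plus strand and Cnn1 at chr9:22099163-22099252 on the plus strand.
Acta2: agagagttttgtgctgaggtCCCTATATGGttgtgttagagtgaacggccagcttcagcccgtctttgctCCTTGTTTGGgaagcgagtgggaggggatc
Lmod1: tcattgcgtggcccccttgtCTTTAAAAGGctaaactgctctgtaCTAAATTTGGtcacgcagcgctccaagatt
Cnn1: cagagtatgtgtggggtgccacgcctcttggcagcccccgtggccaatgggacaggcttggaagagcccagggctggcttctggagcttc
Acta2 and Lmod1 each held 2 boxes, at 84 and 34 bases and at 189 and 164 bases before the start that the table uses, and each box was 1 letter off. The Cnn1 window held none. Of all 32851 windows, 21.1% held at least 1 such box and 3.70% held 2 or more. A match is therefore a description that does not by itself show binding, and binding was not tested. Actg2, Myh11 and Tagln were not in the table. By the same assembly, Actg2 lies on chromosome 6 (83512909 to 83536251), Myh11 on chromosome 16 (14194527 to 14292188) and Tagln on chromosome 9 (45929628 to 45936058).

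The S1pr2fl/fl section held 1282 spots over tissue with 5315351 unique molecular identifiers (UMIs, each the tag of 1 captured molecule), and the S1pr2fl/fl K14-Cre section 981 spots with 2845826 UMIs. The median spot had 3542.5 and 2319 UMIs. S1pr2 itself had 154 UMIs (29.0 CPM, UMIs per 1000000 UMIs) in the S1pr2fl/fl section and 54 UMIs (19.0 CPM) in the S1pr2fl/fl K14-Cre section. The sections did not hold the same tissue in the same shares. A skeletal muscle list was 3.43-fold higher in the S1pr2fl/fl K14-Cre section and a developmental muscle list 17.9-fold higher, while keratinocyte genes were 3.49-fold and hemoglobin genes 4.34-fold higher in the S1pr2fl/fl section. These shifts enter every CPM value, and their part in the differences between the sections was not tested. The 357 barcodes that the libraries share are positions of the array and not shared cells.

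By the direction of their CPM ratio between the sections, the members fell into 2 sets of 3. The sets were formed from these same data, so the ratios below describe them and are no test of them. Relative to one another, Acta2 (smooth muscle α-actin), Actg2 (the γ-actin of enteric smooth muscle) and Myh11 (the smooth muscle myosin heavy chain) kept nearly the same ratios in both sections. Tagln (transgelin, an actin-binding protein), Cnn1 (calponin, which inhibits the myosin ATPase on actin) and Lmod1 (leiomodin, which nucleates actin filaments) also kept similar ratios. Between the sets the ratio moved. There were 1.62 Acta2 UMIs per Myh11 UMI in the S1pr2fl/fl section and 1.67 in the S1pr2fl/fl K14-Cre section (log2 difference 0.04, -0.39 to 0.48), and 0.143 and 0.140 Cnn1 UMIs per Tagln UMI (log2 difference -0.03, -0.55 to 0.49). In contrast, Acta2 UMIs per Tagln UMI were 0.884 in the S1pr2fl/fl section and 0.320 in the S1pr2fl/fl K14-Cre section (log2 difference -1.46, -1.79 to -1.14). These ratios do not depend on how the sections are scaled. Those with Actg2 depend on its low counts: with a background taken off (the mean UMIs of a receptor gene) the log2 ratio between the sections was -2.01 for Actg2, against -0.74 for Acta2 and -0.87 for Myh11, so that Actg2 no longer kept its ratio to them. With the same background taken off, the log2 ratio was 0.83 for Tagln, 0.67 for Cnn1 and 0.30 for Lmod1, against 0.85, 0.82 and 0.57 without. Within the sets the values also spread in spots thinned to 1000 UMIs. The log2 ratios there were 0.87 for Tagln, 1.25 for Lmod1 and 2.12 for Cnn1, and -0.89 for Acta2, -0.98 for Myh11 and -0.29 for Actg2. Thinning is a random draw, and it left Cnn1, Lmod1 and Actg2 in 8, 9 and 10 of 978 S1pr2fl/fl spots.

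Acta2 had 463 UMIs in the S1pr2fl/fl section (87.1 CPM, 79.4 to 95.4) and 162 in the S1pr2fl/fl K14-Cre section (56.9 CPM, 48.5 to 66.4). Myh11 had 285 UMIs (53.6 CPM, 47.6 to 60.2) and 97 UMIs (34.1 CPM, 27.6 to 41.6). Actg2 had 72 UMIs (13.5 CPM, 10.6 to 17.1) and 25 UMIs (8.78 CPM, 5.69 to 13.0). All 3 were lower in the S1pr2fl/fl K14-Cre section by all 11 ways of scaling or choosing spots, but the interval of Actg2 included 0 (log2 ratio -0.62, -1.34 to 0.05). The log2 ratio was -0.61 for Acta2 (-0.88 to -0.35) and -0.65 for Myh11 (-1.001 to -0.32).

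Tagln had 524 UMIs in the S1pr2fl/fl section (98.6 CPM, 90.3 to 107) and 506 in the S1pr2fl/fl K14-Cre section (178 CPM, 163 to 194). Cnn1 had 75 UMIs (14.1 CPM, 11.1 to 17.7) and 71 UMIs (24.9 CPM, 19.5 to 31.5). Lmod1 had 68 UMIs (12.8 CPM, 9.93 to 16.2) and 54 UMIs (19.0 CPM, 14.3 to 24.8). On the CPM scale these were higher in the S1pr2fl/fl K14-Cre section, with log2 ratios of 0.85 for Tagln (0.67 to 1.03), 0.82 for Cnn1 (0.33 to 1.31) and 0.57 for Lmod1 (0.03 to 1.11), but scaling to the 34 and 47 Gapdh UMIs turned all 3 negative (-0.52, -0.55 and -0.80). These Gapdh counts lay near a background that is given below.

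**Figure D1:**
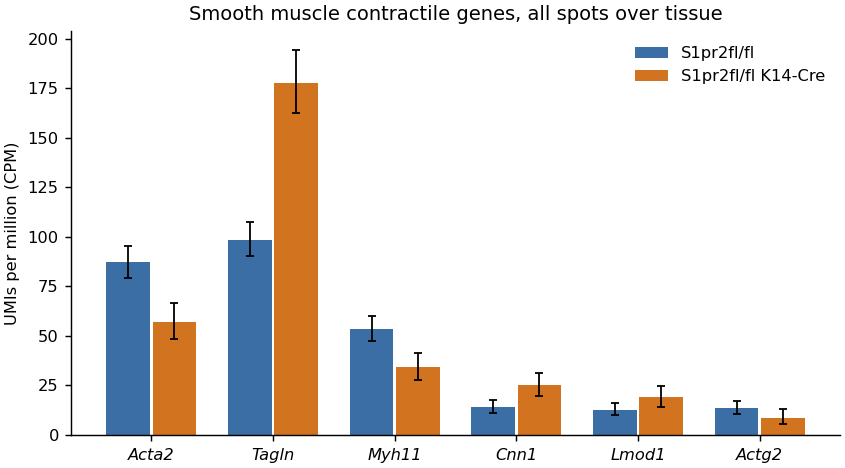
Level of each member over all spots, in CPM of the section, with exact Poisson 95% intervals as error bars. Tagln stood at 98.6 and 178 CPM and Acta2 at 87.1 and 56.9 CPM in the S1pr2fl/fl and S1pr2fl/fl K14-Cre sections. Scaling to Gapdh, whose counts lay near the background, turns the direction of Tagln, Cnn1 and Lmod1. Heights of different genes cannot be compared, as probe numbers and efficiencies differ.

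Over all spots no member differed 2-fold in CPM, where, of 10439 genes with 100 or more UMIs, 6.73% passed 2-fold upward in the S1pr2fl/fl K14-Cre section and 6.83% downward, with a median log2 ratio of 0.02 over all of them. Actg2, with 97 UMIs in all, was below that minimum and the other 5 members passed it. Of the 10439 genes, 17.1%, 17.2% and 15.8% had a lower ratio than Acta2, Actg2 and Myh11. For Tagln, Cnn1 and Lmod1 these shares were 90.1%, 89.4% and 80.9%, so the members lay within the spread of other genes. Thinning or leaving out spots put some members past 2-fold. In spots thinned to 1000 UMIs the log2 ratio was 2.12 for Cnn1 and 1.25 for Lmod1. Thinning is a random draw that left Cnn1 in 8 of 978 and 21 of 870 spots, and Lmod1 in 9 and 17. As a mean over spots of CPM, without this draw, the log2 ratios were 0.99 and 0.28. Without the largest patch of smooth muscle-rich spots in each section, Cnn1 was at 1.14 and Tagln at 1.05. Of the 30 further smooth muscle genes above the minimum, 5 were at least 2-fold higher and 0 lower, and the median log2 ratio was 0.53. The 5 were Des, Tpm1, Pgm5, Hspb6 and Cav3, genes of which at least Des (desmin), Tpm1 (tropomyosin) and Cav3 (caveolin 3) are also abundant in skeletal muscle. Myl9, the regulatory light chain of smooth muscle myosin, had a log2 ratio of 0.31 (0.01 to 0.60) and Mylk, the kinase that phosphorylates it, 0.24 (-0.11 to 0.59).

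The 6 members together held 1487 UMIs (280 CPM, 266 to 294) in the S1pr2fl/fl section and 915 UMIs (322 CPM, 301 to 343) in the S1pr2fl/fl K14-Cre section. The log2 ratio of the sum was 0.20 (0.08 to 0.32) with all UMIs as the scale, and it turned to -0.17 with the TMM factors of edgeR, to -1.17 with Gapdh and to -0.33 per UMI of the endothelium list. It rested on Tagln, which made up 35.2% of the member UMIs in the S1pr2fl/fl section and 55.3% in the S1pr2fl/fl K14-Cre section. Without Tagln the other 5 members had 963 and 409 UMIs and a log2 ratio of -0.33 (-0.50 to -0.17). Per endothelium UMI, Acta2 differed by -1.14 on the log2 scale (-1.42 to -0.87) and Tagln by 0.32 (0.13 to 0.52). Fewer smooth muscle cells in a section and less RNA per cell cannot be told apart in such sums.

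Low counts limit some of these values. Receptor genes of smell and taste, which skin is not known to use widely, had a mean of 11.8 UMIs per gene in the S1pr2fl/fl section and 17.0 in the S1pr2fl/fl K14-Cre section over 1226 genes. The 25 Actg2 UMIs of the S1pr2fl/fl K14-Cre section were more than 79.3% of those genes had, so that Actg2 there lay within the range of this background. The other members were above at least 99.4% of the receptor genes in either section. Gapdh, with 34 and 47 UMIs, was not far above the 95th percentile of the receptor genes, 22 and 34 UMIs. Those genes together stood at 2715 CPM in the S1pr2fl/fl section and 7330 CPM in the S1pr2fl/fl K14-Cre section. Values scaled to Gapdh therefore rest on a gene near this background. The actins are near-identical as proteins. Whether probes for Acta2 or Actg2 also bind Acta1, the actin of skeletal muscle, could not be examined without the probe sequences. The level of Acta1 was 0.985-fold and 0.978-fold in spots with a Myh11 UMI over spots without, whereas that of Acta2 was 4.07-fold (S1pr2fl/fl) and 4.90-fold (S1pr2fl/fl K14-Cre). These levels are a description, and the binding of the probes was not tested.

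Member UMIs were thinly spread with a few dense patches. At least 1 member was found in 470 of the 1282 spots (36.7%, Clopper-Pearson 34.0 to 39.4) and in 287 of the 981 spots (29.3%, 26.4 to 32.2). The 3 densest spots held 71, 70 and 50 member UMIs in the S1pr2fl/fl section and 36, 22 and 19 in the S1pr2fl/fl K14-Cre section. The 10 spots with most UMIs held 23.4% and 18.8% of all member UMIs. The densest spot for Acta2 had 22 UMIs in the S1pr2fl/fl section and 5 in the S1pr2fl/fl K14-Cre section, for Myh11 13 and 6, and for Tagln 30 and 34.

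**Figure D2:**
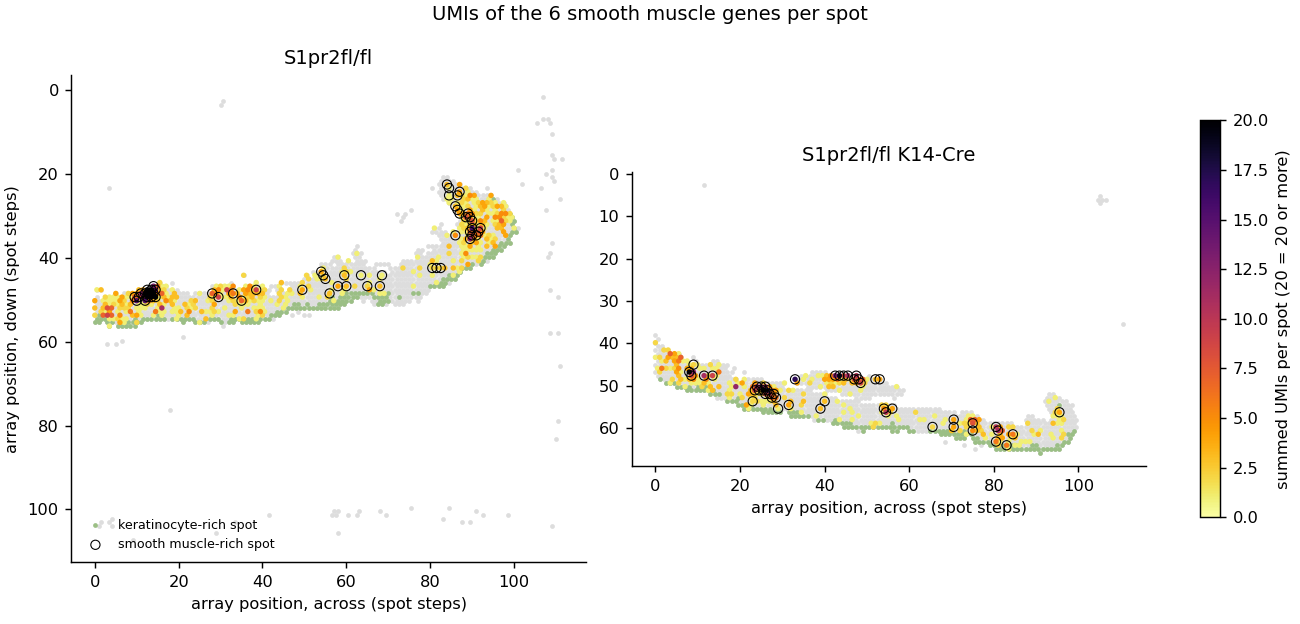
Position of each spot on the array, in spot steps, coloured by its summed UMIs of the 6 members; grey spots had 0, green spots without member UMIs are keratinocyte-rich, and rings mark the smooth muscle-rich spots. The densest patch of the S1pr2fl/fl section had 15 ringed spots with 399 member UMIs, and that of the S1pr2fl/fl K14-Cre section 12 with 134.

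The members lay in the same spots more often than their separate frequencies would give. Among the 1096 S1pr2fl/fl spots with at least 500 UMIs, the 15 pairs of members shared a spot 489 times, where independent placement would give 204.0 (2.40-fold, 2.19 to 2.62), and all 15 pairs were above that number. Among the 947 such spots of the S1pr2fl/fl K14-Cre section the pairs shared a spot 203 times against 73.1 (2.78-fold, 2.41 to 3.18), and 14 of 15 pairs were above. Pairs that share a gene and spots of 1 section are not independent, and deep spots show more of every gene. Independent placement also takes no account of the layers of the skin, and no pairs of other genes were set beside these values. With each spot thinned to 1000 UMIs, the pairs were still 3.24-fold and 3.06-fold above that number, with 12 and 13 of 15 pairs above.

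Acta2 and Tagln were found together in 92 S1pr2fl/fl spots against 45.8 expected (Spearman rho of their shares over spots 0.28) and in 54 S1pr2fl/fl K14-Cre spots against 17.2 (rho 0.34). Acta2 and Myh11 met in 75 against 34.8 spots and in 25 against 6.76. Actg2 and Cnn1 were 6.16-fold over independence in the S1pr2fl/fl section, in 14 spots. The exception was Cnn1 with Lmod1 in the S1pr2fl/fl K14-Cre section, in 0 spots where 1.63 were expected, a number too small to show a difference. All rho were low, from 0.08 to 0.28 in the S1pr2fl/fl section and from -0.04 to 0.34 in the S1pr2fl/fl K14-Cre section, and most spots held 0 or 1 UMI of a member. With the sum of the other members, rho was 0.30 and 0.33 for Acta2, 0.27 and 0.26 for Myh11 and 0.32 and 0.32 for Tagln. It was 0.23 and 0.14 for Actg2, 0.18 and 0.12 for Cnn1 and 0.17 and 0.10 for Lmod1. Of other genes with at least 200 UMIs in each section, 95% were below 0.21 and 0.15 with the sum of all 6 members. Acta2, Myh11 and Tagln lay above these values in both sections. Actg2 did so only in the S1pr2fl/fl section, and Cnn1 and Lmod1 in neither. Of the members only Tagln had 200 UMIs in each section, so the others are not matched to those genes in counts.

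Spots with several members were more numerous in the S1pr2fl/fl section, which was deeper. All 6 members were found in 3 of its spots and 5 in a further 10, against 0 of 947 S1pr2fl/fl K14-Cre spots for either, where 12 spots had 4 members. At 1000 UMIs per spot, Acta2 was found in 7.46% of S1pr2fl/fl spots (5.90 to 9.29) and 4.37% of S1pr2fl/fl K14-Cre spots (3.11 to 5.95), and Myh11 in 5.01% (3.73 to 6.57) and 2.87% (1.87 to 4.21). Tagln was found in 7.77% (6.17 to 9.63) and 11.0% (9.03 to 13.3), and Cnn1 in 0.818% (0.354 to 1.61) and 2.41% (1.50 to 3.67). Lmod1 was found in 0.920% (0.422 to 1.74) and 1.95% (1.14 to 3.11), and Actg2 in 1.02% (0.491 to 1.87) and 0.805% (0.324 to 1.65), in 10 and 7 spots. The directions were those of the CPM ratios, but the intervals of the sections overlapped for each member. These shares come from the same counts and are not further support for the split. A Tagln UMI without any other member was found in 40.9% of the S1pr2fl/fl spots with Tagln (92 of 225) and in 52.4% of those of the S1pr2fl/fl K14-Cre section (88 of 168).

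To see what lay around the members, the 5% of spots with the highest share of member UMIs were set against the other spots of the section. These smooth muscle-rich spots, 55 and 47 in number, were chosen by the members, so that the members' own excess there is no result. They held 40.3% and 42.8% of the member UMIs. The lowest share inside was 1219 CPM in the S1pr2fl/fl section and the highest outside 1209 CPM, and 1508 and 1502 CPM in the S1pr2fl/fl K14-Cre section. In each section 10 of these spots had only 1 member.

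Endothelium and hemoglobin genes were high in these spots in both sections. The endothelium list was 2.83-fold higher than in the other spots in the S1pr2fl/fl section (log2 1.50, 1.33 to 1.67) and 2.33-fold higher in the S1pr2fl/fl K14-Cre section (1.22, 1.03 to 1.41). Of its genes with at least 100 UMIs, 10 of 11 were at least 2-fold higher in the S1pr2fl/fl section, where 9.16% of 8458 genes were, and 5 of 7 in the S1pr2fl/fl K14-Cre section, where 8.08% of 5753 genes were. The median log2 ratio of the list was 1.35 and 1.25, against 0.10 and 0.03 over all genes tested. Vwf (von Willebrand factor) was 6.11-fold and 4.21-fold higher. Hemoglobin genes, which mark red cells, were 6.18-fold (log2 2.63) and 6.95-fold (log2 2.80) higher over all depths. In spots chosen by at least 3 members and 10 member UMIs the log2 values were 1.67 and 0.85, and in thinned spots 1.76 and 3.55. At 5 and more spot steps from the spots richest in keratinocyte genes, hemoglobin genes stood at 7946 against 3163 CPM (S1pr2fl/fl) and 2983 against 208 CPM (S1pr2fl/fl K14-Cre). At 0 to 4 steps they stood at 353 (115 to 824) against 392 CPM and 996 against 284 CPM. The arterial list was 1.92-fold higher in the S1pr2fl/fl section (log2 0.94, 0.57 to 1.29) and 1.18-fold in the S1pr2fl/fl K14-Cre section (0.24, -0.26 to 0.70). The venous list was 2.19-fold (1.13, 0.63 to 1.60) and 1.54-fold (0.63, -0.04 to 1.23), so that the intervals of both lists included 0 in the S1pr2fl/fl K14-Cre section. In each section 1 arterial gene had 100 UMIs or more. It did not pass 2-fold in the S1pr2fl/fl section, and in the S1pr2fl/fl K14-Cre section it was Efnb2, an ephrin ligand, which was at least 2-fold lower. The arterial list also changed with depth. At 5 and more spot steps from the spots richest in keratinocyte genes, it was 313 CPM in smooth muscle-rich S1pr2fl/fl spots against 143 CPM in others. In the S1pr2fl/fl K14-Cre section it was 312 CPM (185 to 493) there against 95.7 CPM (76.8 to 118). At 0 to 4 steps it was 565 against 183 CPM and 255 against 309 CPM.

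Some genes of the contractile machinery that had no part in the choice of spots were also high. Myl9 was 7.65-fold higher in the smooth muscle-rich spots of the S1pr2fl/fl section (60 UMIs there) and 8.37-fold higher in those of the S1pr2fl/fl K14-Cre section (51 UMIs). Mylk was 5.26-fold and 3.58-fold higher, and Ppp1r14a, an inhibitor of myosin phosphatase, 5.08-fold and 5.17-fold. Cald1 (caldesmon) was 3.52-fold and 2.50-fold higher and Flna (filamin A) 2.59-fold and 3.91-fold. In all, 11 of 27 further smooth muscle genes were at least 2-fold higher in the S1pr2fl/fl section and 9 of 28 in the S1pr2fl/fl K14-Cre section. Over all genes tested these shares were 9.16% and 8.08%. Cav3 was at least 2-fold lower in the S1pr2fl/fl K14-Cre section. The list as a whole was 1.77-fold and 1.15-fold. At 5 and more spot steps from the spots richest in keratinocyte genes it was lower, at 16230 against 20163 and 21022 against 28151 CPM. At 0 to 4 steps it was 4235 against 3951 and 17870 against 10499 CPM. Over all steps Des was 1.48-fold and 0.913-fold, and the skeletal muscle list 1.37-fold and 0.924-fold, so neither moved with the members in both sections. By depth the skeletal muscle list went the same way in both sections. At 5 and more steps it was lower in smooth muscle-rich than in other spots. The values were 25806 against 50765 CPM (S1pr2fl/fl) and 65720 against 124842 CPM (S1pr2fl/fl K14-Cre). At fewer steps it was higher, at 6141 against 4231 CPM (S1pr2fl/fl) and 53067 against 30218 CPM (S1pr2fl/fl K14-Cre).

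The bulge and outer root sheath list was lower in these spots, and the markers of arrector pili muscle had few UMIs. That list was 0.433-fold in the smooth muscle-rich spots of the S1pr2fl/fl section and 0.515-fold in those of the S1pr2fl/fl K14-Cre section (log2 -1.21 and -0.96, but -0.38 and -0.50 in thinned spots), and keratinocyte genes were 0.370-fold and 0.290-fold. Of the bulge list genes with at least 100 UMIs, 3 of 7 and 3 of 5 were at least 2-fold lower, where 774 of 8458 and 817 of 5753 genes were. In the spots richest in keratinocyte genes the list stood at 3411 and 3751 CPM, so it did not follow the bulge alone. The bulge and keratinocyte lists were lowest at 5 and more steps from those spots, so depth enters these folds. There the bulge list was 1151 against 1551 CPM (S1pr2fl/fl) and 572 (394 to 804) against 701 CPM (S1pr2fl/fl K14-Cre). Keratinocyte genes were 20344 against 21485 and 1908 against 3037 CPM. At 0 to 4 steps the S1pr2fl/fl bulge list was 2118 (1429 to 3023) against 3331 CPM. Over all steps the arrector pili list was 1.51-fold and 0.949-fold. However, Des and Synpo2 made up nearly all of its UMIs and are also genes of skeletal muscle. Itga8, the α8 integrin subunit that arrector pili muscle uses to attach to the bulge, had 20 UMIs in each whole section, of which 3 and 5 fell in smooth muscle-rich spots, 4.21-fold over the other spots in the S1pr2fl/fl section (log2 2.07, -0.34 to 3.86) and 6.23-fold in the S1pr2fl/fl K14-Cre section (2.64, 0.83 to 4.17). Npnt (nephronectin, its ligand) had 0 of 91 UMIs there in the S1pr2fl/fl section and 4 of 89 in the S1pr2fl/fl K14-Cre section. With so few UMIs an arrector pili pattern could not be told apart from that of vessels at this depth, and its share in the member UMIs was not tested. Near the surface, where these muscles insert, the sections differed in how many smooth muscle-rich spots they had. At 0 to 4 spot steps from the keratinocyte-rich spots, the spots with the highest share of keratinocyte genes, there were 9 in the S1pr2fl/fl section with 25 member UMIs and 29 in the S1pr2fl/fl K14-Cre section with 192. As smooth muscle-rich spots are a fixed 5% of each section, these numbers are what the deeper spots left over and not counts of muscles. In the S1pr2fl/fl K14-Cre section these near spots had the following surround. In these 29 spots the endothelium list was at 1726 CPM against 819 CPM in the other spots of that depth, and the bulge list at 1077 CPM (869 to 1320) against 2225 CPM. The arrector pili list was at 3810 CPM (3410 to 4245) against 2156 CPM, and the skeletal muscle list, which moved with it, at 53067 against 30218 CPM. Itga8 had 2 UMIs in the 86344 UMIs of these spots and 8 in the 1762659 UMIs of the others, and Npnt 3 and 23. The endothelium and arrector pili lists were thus both higher there. The arterial list (255 against 309 CPM) and the mural list (730 against 755 CPM) were not. The venous list was at 139 CPM (71.8 to 243) against 107 CPM. The parts of vessels and arrector pili in the member UMIs were not tested. Elsewhere the arrector pili list had the lower value in smooth muscle-rich spots. In the S1pr2fl/fl section it was 353 (115 to 824) against 486 CPM at 0 to 4 steps and 2923 against 5061 CPM at 5 and more. At 5 and more steps in the S1pr2fl/fl K14-Cre section it was 3174 against 6763 CPM. The endothelium list was higher in each case, at 847 against 412, 1545 against 812 and 1891 against 677 CPM. The mural list over all smooth muscle-rich spots was 1.03-fold and 1.21-fold, with Rgs5, a pericyte gene, at 2.03-fold and 1.07-fold. Of 7 mural genes with at least 100 UMIs in the S1pr2fl/fl section, 3 were at least 2-fold higher (Rgs5, Cspg4, Heyl) and 1 lower (Ndufa4l2). Of 5 in the S1pr2fl/fl K14-Cre section, 1 was higher (Notch3) and 1 lower (Pdgfrb). Over all genes tested, 9.16% and 8.08% were at least 2-fold higher. The median log2 ratio of the list was 0.99 and -0.19, against 0.10 and 0.03 over all genes. In the keratinocyte-rich spots this list stood at 1016 and 1168 CPM, so it did not follow vessel walls alone. In smooth muscle-rich against other spots at 5 and more steps it was 767 against 551 CPM (S1pr2fl/fl) and 867 against 449 CPM (S1pr2fl/fl K14-Cre). At 0 to 4 steps it was 635 against 811 and 730 against 755 CPM.

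The smooth muscle-rich spots formed 24 connected groups in the S1pr2fl/fl section and 26 in the S1pr2fl/fl K14-Cre section, of which 16 and 19 were single spots. The largest group of the S1pr2fl/fl section had 15 spots, 5 to 8 spot steps from the nearest keratinocyte-rich spot, and held 27.1% of the member UMIs in 1.83% of all UMIs. Its endothelium list was 3.09-fold over the whole section (2.64 to 3.59), its arterial list 1.96-fold (1.36 to 2.74), its hemoglobin genes 5.25-fold and its fat genes 2.02-fold. Its arrector pili list was 1.76-fold (1.57 to 1.96), with 282 of 319 UMIs from Des, and its skeletal muscle list 1.61-fold (1.55 to 1.67). In CPM these were 3273 and 29192, against 5061 and 50765 in spots at 5 and more steps that were not smooth muscle-rich. It held 3 Itga8 and 0 Npnt UMIs. Its bulge list was 0.467-fold, but Krt15 of that list had 38 UMIs in 97457, against 1669 in the 5274645 UMIs of the section's spots with at least 500 UMIs. The parts of vessels and arrector pili in this group were not tested. Its 399 member UMIs were 34.3% Tagln, 30.6% Acta2 and 19.0% Myh11. A further group of 7 spots, also deep, had endothelium genes at 2.90-fold and hemoglobin genes at 11.4-fold, with Tagln at 53.1% of 64 member UMIs. Its arrector pili list was at 0.133-fold (0.061 to 0.252).

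The largest group of the S1pr2fl/fl K14-Cre section had another surround. Its 12 spots lay 3 to 6 steps from the keratinocyte-rich spots, with collagen genes at 2.05-fold over the section (1.96 to 2.15), immune cell genes at 2.01-fold (1.67 to 2.39), endothelium genes at 1.67-fold (1.26 to 2.17) and hemoglobin genes at 0.731-fold (0.351 to 1.34). Its arrector pili list was at 0.762-fold (0.629 to 0.914). Its 134 member UMIs were 55.2% Tagln, 16.4% Acta2 and 11.9% Myh11. Groups of 4 spots each in the same section lay 11 to 12 steps deep. The first had fat genes at 6.97-fold and hemoglobin genes at 6.18-fold, and the other hemoglobin genes at 41.6-fold and endothelium genes at 3.50-fold. Tagln was 52.9% of 51 and 53.1% of 32 member UMIs in these groups, which were chosen by the summed members and hold too few UMIs to compare them.

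**Figure D3:**
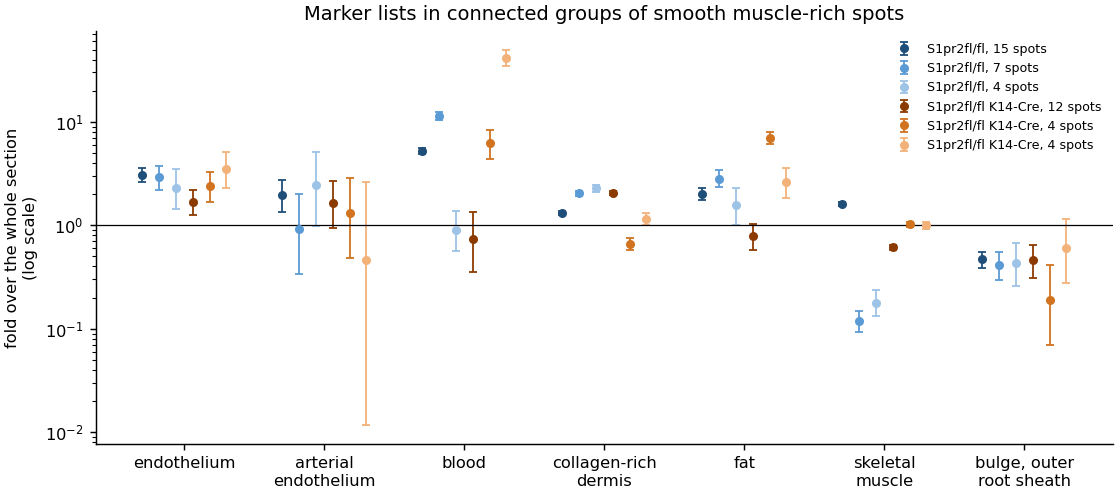
Level of marker lists in the connected groups of at least 4 smooth muscle-rich spots, as fold over the whole section on a log axis, with 95% counting intervals. Endothelium genes lay above 1 in all 6 groups, from 1.67-fold to 3.50-fold, and the bulge and outer root sheath list below 1, while blood, fat and collagen genes differed between groups.

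Leaving out the largest group of each section shows how far 1 patch carried the difference between the sections. Without it, the log2 ratio of Acta2 was -0.39 (-0.68 to -0.10), that of Myh11 -0.47 (-0.86 to -0.10) and that of Actg2 -0.36 (-1.17 to 0.41). That of Tagln was 1.05 (0.85 to 1.26), of Cnn1 1.14 (0.56 to 1.73) and of Lmod1 0.81 (0.22 to 1.40), values that are positive on the CPM scale and would be lower by 1.37 with Gapdh as the scale. Each member kept its direction on the CPM scale.

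**Figure D4:**
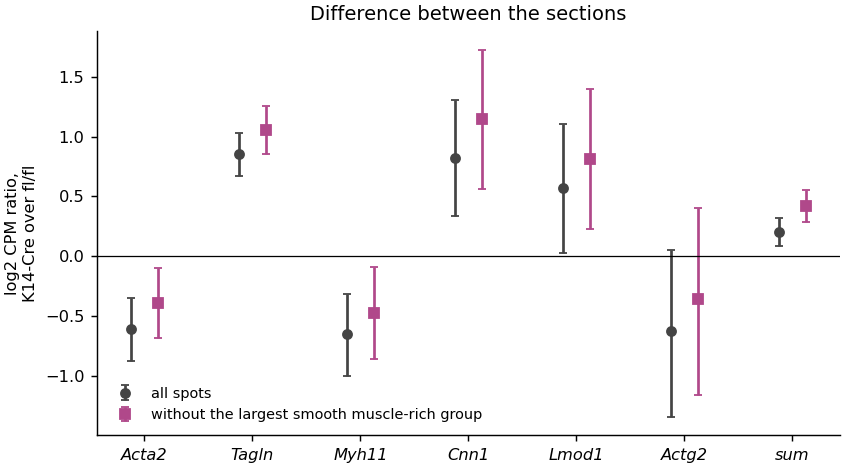
Log2 ratio of CPM, S1pr2fl/fl K14-Cre over S1pr2fl/fl, for each member and the sum, over all spots (circles) and without the largest group of smooth muscle-rich spots in each section (squares), with conditional binomial 95% intervals. Acta2, Myh11 and Actg2 lie below 0 and Tagln, Cnn1, Lmod1 and the sum above it in both, but scaling to Gapdh puts all of them below 0 and TMM the sum over all spots. The Gapdh counts lay near the receptor background.

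The members were low at the surface and rose with distance from it, in another way in each section. Distance was counted in spot steps from the 15% of spots with the highest share of keratinocyte UMIs. In the S1pr2fl/fl section the summed members stood at 24.4 CPM in the keratinocyte-rich spots, 155 CPM at 1 to 2 steps, 193 CPM at 3 to 4 steps and 583 CPM (547 to 621) at 5 and more steps. In the S1pr2fl/fl K14-Cre section they stood at 81.9, 254, 414 and 407 CPM (368 to 449). The S1pr2fl/fl section had 46 of its 55 smooth muscle-rich spots at 5 and more steps, and the S1pr2fl/fl K14-Cre section 18 of 47. Keratinocyte-rich spots had a median of 14.5% keratinocyte UMIs in the S1pr2fl/fl section and 6.11% in the S1pr2fl/fl K14-Cre section, and the largest distance was 53 and 13 steps. At 5 and more steps keratinocyte genes stood at 21351 CPM in the S1pr2fl/fl section and at 2972 CPM in the S1pr2fl/fl K14-Cre section. Equal steps are therefore not matched depths in the skin.

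At 1 and more steps, Acta2 and Myh11 differed between the sections in another band of steps than Tagln. As the bands are not matched in depth, this is no difference at a given skin depth, and the band ratios were not repeated with other keratinocyte thresholds. At 5 and more steps Acta2 was 177 CPM in the S1pr2fl/fl section and 70.9 CPM in the S1pr2fl/fl K14-Cre section (log2 ratio -1.32, -1.72 to -0.94), and Myh11 105 and 35.4 CPM (-1.56, -2.13 to -1.03). Tagln was 217 and 232 CPM there (0.10, -0.15 to 0.34). At 3 to 4 steps it was Tagln that differed, with 57.9 CPM in the S1pr2fl/fl section and 232 CPM in the S1pr2fl/fl K14-Cre section (2.00, 1.59 to 2.43), while Acta2 had 57.1 and 76.5 CPM (0.42, -0.12 to 0.96) and Myh11 49.3 and 47.8 CPM (-0.04, -0.70 to 0.59). At 1 to 2 steps the log2 ratio was 1.39 for Tagln (0.94 to 1.84) and -0.27 for Acta2 (-0.91 to 0.34). In the keratinocyte-rich spots, at 0 steps, it was 2.38 for Tagln (0.83 to 4.21) on 5 and 14 UMIs. For Myh11 it was 2.71 there (0.31 to 6.01), on 2 and 7 UMIs, and for Acta2 0.22 (-1.74 to 2.01). With Gapdh as the scale each of these log2 ratios would be lower by 1.37.

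**Figure D5:**
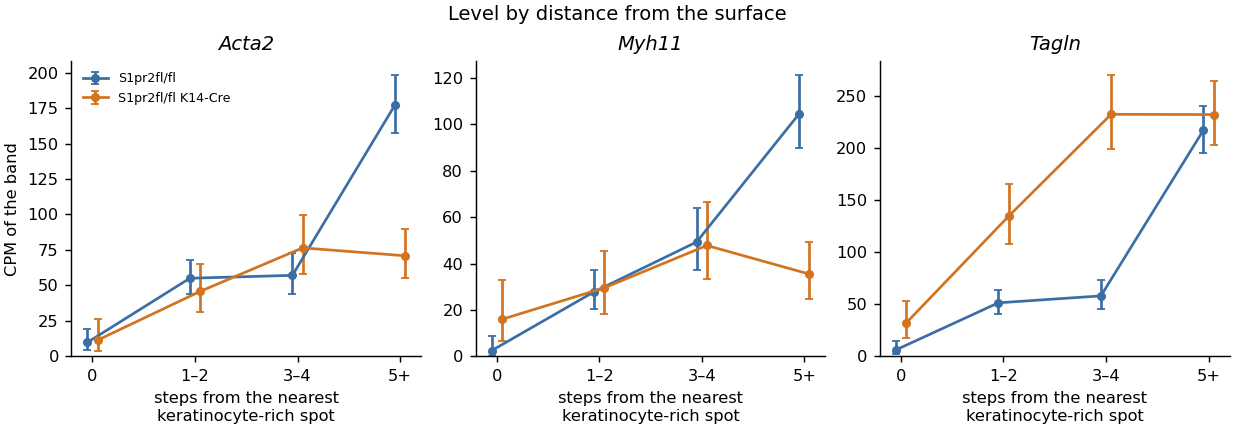
CPM of Acta2, Myh11 and Tagln by distance from the nearest keratinocyte-rich spot, in spot steps, with exact Poisson 95% intervals. At 1 and more steps, Acta2 and Myh11 of the sections part at 5 and more steps (177 against 70.9 CPM and 105 against 35.4 CPM), and Tagln between 1 and 4 steps. At 0 steps Tagln (5 and 14 UMIs) and Myh11 (2 and 7 UMIs) were higher in the S1pr2fl/fl K14-Cre section.

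The members were also compared by tissue zone. A zone was the 10% of spots with the highest share of a marker list, and zones can overlap. The summed members stood at 1122 CPM in the endothelium zone of the S1pr2fl/fl section and at 202 CPM outside it (5.55-fold), and at 730 and 282 CPM in the S1pr2fl/fl K14-Cre section (2.59-fold). The arterial zone was 2.72-fold over its outside in the S1pr2fl/fl section and 0.988-fold in the S1pr2fl/fl K14-Cre section, and the mural zone 1.36-fold and 0.504-fold. As the mural list was highest in keratinocyte-rich spots, its zone does not mark vessel walls alone. The blood zone was 3.27-fold and 2.03-fold over its outside. The bulge zone was 0.292-fold and 0.397-fold and the skeletal muscle zone 0.721-fold and 0.450-fold. In the zone of the arrector pili list, mostly Des and Synpo2, members were 0.874-fold (log2 -0.19, -0.53 to 0.13) and 0.901-fold (-0.15, -0.55 to 0.22). The collagen zone differed between the sections, with members at 1.12-fold in the S1pr2fl/fl section and 2.37-fold in the S1pr2fl/fl K14-Cre section. Tagln had 37 UMIs in the first and 148 in the second (log2 ratio of CPM 2.19, 1.66 to 2.75), and Acta2 34 and 42 (0.50, -0.19 to 1.19). In the endothelium zone Acta2 had 161 and 37 UMIs (-1.30, -1.86 to -0.78) and Tagln 166 and 112 (0.25, -0.11 to 0.61). Cnn1 (37 and 8 UMIs, -1.39, -2.70 to -0.26) and Lmod1 (19 and 5 UMIs, -1.11, -2.88 to 0.36) lay there on the side of Acta2 and not of Tagln. In the arterial zone Tagln was lower in the S1pr2fl/fl K14-Cre section too (122 and 39 UMIs, -0.81, -1.37 to -0.28), as was Acta2 (98 and 11 UMIs, -2.32, -3.37 to -1.42), and in the mural zone Tagln was at -0.84 (-1.79 to 0.02). The 2 sets of 3 seen over whole sections were therefore not repeated in each zone.

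The genes whose pattern over spots was most like that of the summed members were ranked by rho. Among 2787 genes with at least 200 UMIs in each section that were no members, the 10 with the highest lower rho of the 2 sections were Mgp, Igfbp7, Lgals1, Vim, Bgn, Sparcl1, Sparc, Igfbp5, Col1a2 and Fstl1. Mgp (matrix Gla protein) had a rho of 0.30 in the S1pr2fl/fl section and 0.24 in the S1pr2fl/fl K14-Cre section, and the rest of the list between 0.22 and 0.31. For comparison, 95% of the genes were below 0.21 and 0.15. These are weak correlations over 1096 and 947 spots that share a library and a range of depths.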

How the data were processed

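Per the file headers, the deposited values are unnormalized counts of UMIs, 1 value for each gene in each spot that lies over tissue. The matrix header names Space Ranger 3.0.0, the submitters' processing notes name mm10, and the study's methods name Partek Flow for further steps. The files' gene symbols and Ensembl identifiers were used as given. Sums were divided by all UMIs of the spots and given as CPM. Sharing, distances, zones and smooth muscle-rich spots used spots with at least 500 UMIs. Intervals (95%) are exact Poisson for counts, Clopper-Pearson for shares of spots and conditional binomial for ratios. PCR and capture are not covered by them. Comparisons over all genes used a minimum of 100 UMIs and a pseudocount of 0.5, and 2-fold was taken as the threshold of size.

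The members and the marker lists were chosen with earlier results of these data known. Named genes were the members, further smooth muscle and marker genes with enough UMIs, and the 10 most alike by rho. Other settings were a count minimum of 500 UMIs, thinning to 1000 UMIs, connected groups of at least 20 spots, leaving out skeletal muscle-rich spots or the 5 densest spots, taking off the receptor background, TMM, Gapdh, and other thresholds for rich spots and zones. After the values were seen, 3 were added: leaving out the largest group, scaling to the endothelium list and leaving out Tagln. The computation was done in Python 3.11.15 with numpy 2.4.6, scipy 1.17.1 and pandas 2.3.3, and edgeR 4.0.16 in R 4.3.3 gave the TMM factors. The steps were tested on simulated data. Promoters and gene positions are from RefSeq tables of GRCm38.p6, in which 3 of the 6 members have a promoter window. Histology and image files were not used here.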

Additional observations from a re-analysis of the deposited data

How the results depend on the processing

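No paired analysis was possible because each genotype is 1 section, and for the same reason no section could be left out. Scaling decided the direction of the summed members: the log2 ratio of 0.20 became -0.17 with TMM factors, which shift all genes by 0.37, -1.17 with Gapdh (shift 1.37), -0.33 per endothelium UMI and -0.33 without Tagln, and it was 0.42 without the largest group of smooth muscle-rich spots. With Gapdh, Tagln (-0.52), Cnn1 (-0.55) and Lmod1 (-0.80) also turned, on 34 and 47 Gapdh UMIs, counts near the receptor background. Acta2, Actg2 and Myh11 stayed below 0 in all 11 settings, from -1.98 to -0.39, from -2.01 to -0.29 and from -2.02 to -0.43. With spots thinned to 1000 UMIs, Cnn1 was 2.12 and Lmod1 1.25, after a random draw that left them in 8 and 9 of 978 S1pr2fl/fl spots. Sharing of spots rose to 4.87-fold and 4.71-fold with at least 2 UMIs per gene and to 3.24-fold in the thinned S1pr2fl/fl spots. The log2 excess of the endothelium list in smooth muscle-rich S1pr2fl/fl spots was 1.32 with 10% of spots and 0.91 after thinning, and 0.92 in S1pr2fl/fl K14-Cre spots with at least 3 members and 10 UMIs. The skeletal muscle list in S1pr2fl/fl K14-Cre spots was 0.0028 with 10% of spots in place of -0.11. With 25% of spots as keratinocyte-rich, the log2 ratio of members at 5 and more steps over the rest was 0.19 in the S1pr2fl/fl K14-Cre section. With zones of 5%, the endothelium zone stood at 2.75 and 1.87 over its outside. Of 128 values recomputed, 71 stayed within the counting interval of the value reported, 49 left it in the same direction and 8 turned. The cause of these moves was not tested.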
